A study of Homo sapiens with 6 samples.

Results

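Small RNA processing and Argonaute genes were examined in the established human melanoma line LOX-IMVI by the level of their mRNA. The 10 genes were chosen by name, out of 47432 genes listed in each library, as the machinery that a hairpin RNA uses: DROSHA, DGCR8, XPO5, DICER1, AGO1, AGO2, AGO3, AGO4, TNRC6A and TNRC6B. Lentiviral vectors had been brought into the cells with polybrene, puromycin had removed cells without a vector, and the cultures carried either the pLKO.1 control (shCtrl) or pLKO.1 with 1 short hairpin RNA against NFKBIZ (shNFKBIZ), the gene of the nuclear co-regulator IκBζ. Each group had 3 libraries, which the study describes as independent experiments. Effects of the lost NFKBIZ and of that 1 hairpin cannot be told apart here, and hairpin RNAs, small RNAs and proteins were not measured.

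In the nucleus of animal cells, the nuclease DROSHA and its partner DGCR8 form the Microprocessor, which cuts hairpins out of primary microRNA transcripts. Exportin-5, the product of XPO5, carries the hairpins to the cytoplasm, where DICER1 trims them to duplexes, and an Argonaute protein keeps 1 strand as a guide. The TNRC6 proteins bind Argonaute and recruit the deadenylases and decapping factors that silence the target mRNA. Of the Argonautes, AGO2 is the efficient slicer of targets. A hairpin expressed from a vector such as pLKO.1 enters the same route after the DROSHA step.

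The libraries held 22264473 to 24624839 exon reads (total exon counts per gene, summed), of which the 10 genes took 18977 to 20575. Exon reads of NFKBIZ numbered 1519, 1629 and 1674 in the control libraries and 474, 477 and 468 in the knockdown libraries, a log2 fold change of -1.78 (edgeR adjusted P 7.2e-17, SE 0.0581). The melanocyte markers SOX10 and MLANA were at 0 reads in all libraries, and TYR (0 to 1), DCT (1 to 2) and PMEL (1 to 11 reads) were near 0, while MITF had 135 to 165 reads in shCtrl and 76 to 94 in shNFKBIZ. Melanocyte lineage markers other than MITF were thus absent or near 0, and of the 4 genes of dedifferentiated melanoma looked at, NGFR was at 0 to 3 reads and the rest were expressed. AXL was at 384 to 432 TPM (the deposited per-length unit) in shCtrl and 483 to 490 in shNFKBIZ, EGFR at 38.4 to 41.6 and 64.6 to 68.1, and SOX9 at 20.98 to 22.4 and 53.0 to 57.0 TPM. Among markers of other cells, 7 of 9 were at 0 to 5 reads in all libraries (PTPRC, CD3E, EPCAM, CDH1, PECAM1, VWF and CDH5). KRT8, a keratin, had 551 to 612 reads in shCtrl and 866 to 996 in shNFKBIZ. CD68 had 1238 to 1386 and 2464 to 2546 reads, of which only 77 to 89 and 160 to 182 were unique to it. These TPM values and read counts carry no TMM factors (scaling between libraries), so the sizes of the marker differences are approximate. The part of these marker differences in the values of the members was not tested. In such bulk samples, fewer cells with a transcript and less RNA per cell cannot be told apart.

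DGCR8 mRNA itself holds hairpins, and the Microprocessor is known to cut them, which lowers DGCR8. The mature microRNAs annotated inside the members are shown as features of these genes, from RefSeq on GRCh38.p14, with the seed (bases 2 to 8, which pairs with targets) in capitals. No 2 of them share a seed. The first lies in the 5′UTR part of DGCR8 exon 2 (chr22:20085797-20085818, plus strand), the next pair in the coding part of the same exon (chr22:20086072-20086093 and chr22:20086112-20086129), and the last pair in an intron of DICER1 (chr14:95137961-95137982 and chr14:95137923-95137944, minus strand).
hsa-miR-3618: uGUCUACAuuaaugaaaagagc
hsa-miR-1306-5p: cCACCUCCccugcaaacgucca
hsa-miR-1306-3p: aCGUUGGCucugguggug
hsa-miR-3173-5p: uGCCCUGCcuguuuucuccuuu
hsa-miR-3173-3p: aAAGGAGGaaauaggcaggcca
The genes MIR3618, MIR1306 and MIR3173 were listed at 0 reads in all 6 libraries, so the files give no level for these microRNAs.

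XPO5 and TNRC6B, which had the largest falls among the members, were also the members whose annotated transcripts hold the 7-mer GGAACTC. This 7-mer had been picked out earlier on these same libraries because genes that hold it tended to be lower, so its presence is a description and no independent support. It was looked for on the sense strand of the coding sequence and 3′UTR of 1 canonical transcript per gene (GENCODE 44, hg38). XPO5 held 1 site in its coding sequence (chr6:43531540-43531566, minus strand) and TNRC6B held 2 in its 3′UTR (chr22:40329178-40329204 and chr22:40332017-40332043, plus strand). The sites are shown with 10 bases on each side and the 7-mer in capitals.
XPO5 coding site: aacctctcttGGAACTCaatgactctc
TNRC6B first 3′UTR site: aagaaaatagGGAACTCacaaaccctg
TNRC6B second 3′UTR site: gtgcagcaatGGAACTCcacaggctcc
Of the 10 members 2 (20%) held the 7-mer, near the share over all genes. Of all 11923 coding genes tested, 2273 (19.1%) held it, with a median log2 fold change of -0.14 against 0.01 for the others. In the 53 other small RNA pathway genes described further on, 7 held it, and their median was -0.03 against -0.05 without it. The members without the 7-mer had a median of 0.10.

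Per unit of annotated exon length, XPO5 was the most abundant member in shCtrl, at 73.2 ± 1.01 TPM (SD, n = 3). It was followed by DROSHA at 48.1 ± 1.34 TPM and AGO2 at 39.8 ± 1.37 TPM. DGCR8 (28.1 ± 0.906) and TNRC6A (26.9 ± 1.15 TPM) were neighbours within their spread, as were DICER1 (17.5 ± 1.29) and AGO1 (17.4 ± 0.688 TPM). AGO4 (11.4 ± 0.418), TNRC6B (9.35 ± 0.312) and AGO3 (5.69 ± 0.164 TPM) were the lowest. In shNFKBIZ the order at the top turned. AGO2 came first at 56.9 ± 0.733 TPM, XPO5 second at 52.4 ± 1.24 TPM and DROSHA next at 47.1 ± 1.21 TPM. TPM carries no TMM scaling, and with library size alone the median log2 fold change of all genes was 0.09. TPM is therefore used here for the order of genes and for shares within a library. Marker levels and family sums in TPM are not scaled between the groups. The order depends on the length used, because the files take the union of all annotated exons, which is 22151 bases for DICER1 and 10384 bases for its canonical transcript. With canonical transcript lengths XPO5 was first and DROSHA second in both groups, and AGO2 was the fourth.

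Exon reads of 8 of the 10 members differed between the groups at an adjusted P of at most 0.05, with 4 higher (AGO2, DGCR8, AGO1, TNRC6A) and 4 lower (TNRC6B, XPO5, AGO4, DROSHA) in shNFKBIZ cells. Over all 13843 genes tested, 32.5% were higher and 32.8% lower, so the share of members called was not far from the background. The groups did not overlap in CPM (counts scaled to library size with TMM factors) for 9 members, DICER1 being the exception, and for 68.7% of all genes tested. None of the members changed 2-fold or more, while 8.96% of the genes tested were called with such a change. The median absolute log2 fold change of the members was 0.22, against 0.30 over all genes tested. The members therefore moved in both directions and by modest amounts.

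**Figure D1:**
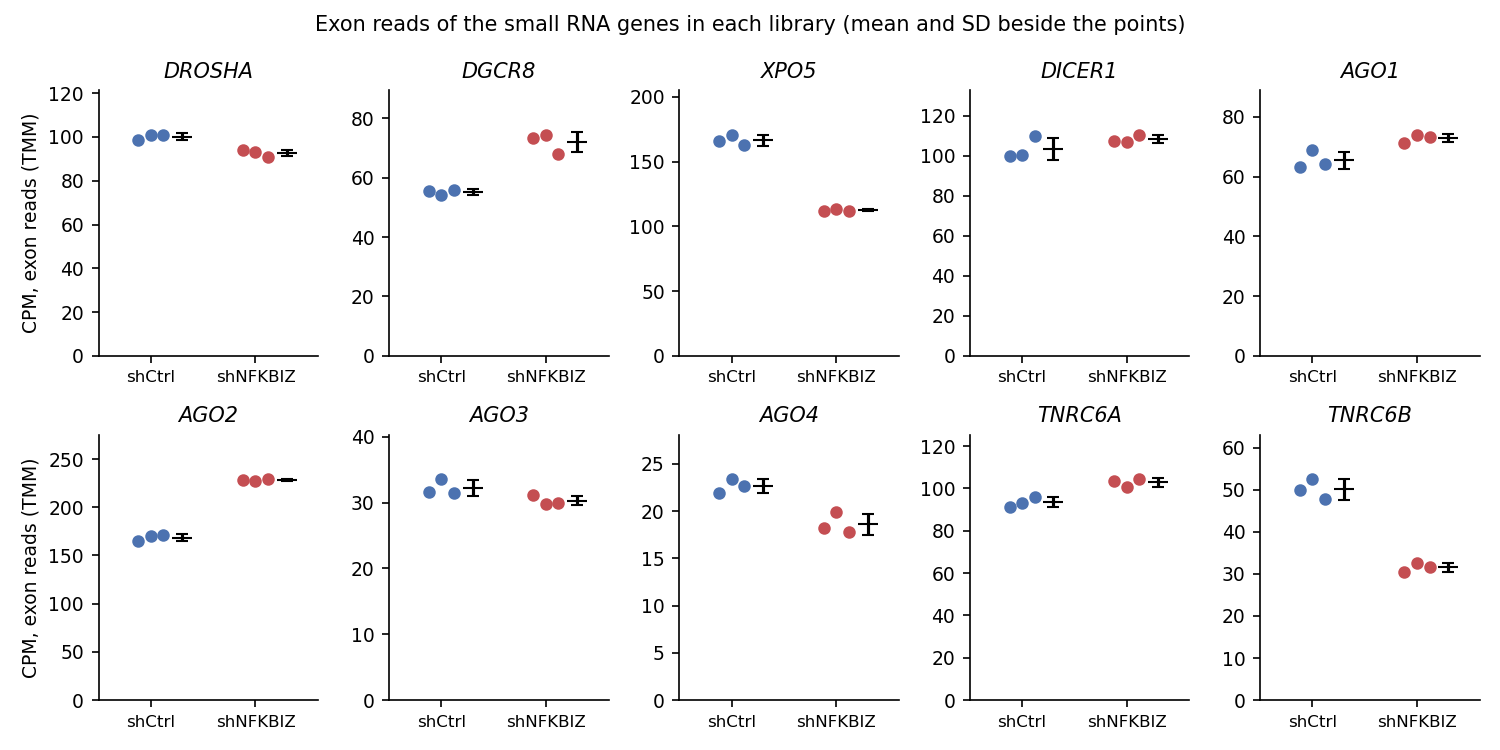
Exon reads of each member in CPM (TMM-scaled) in the 3 shCtrl libraries (blue) and the 3 shNFKBIZ libraries (red), 1 point per library, with the mean and SD in black. Every axis starts at 0. AGO2 and DGCR8 stand higher and XPO5 and TNRC6B lower in all shNFKBIZ libraries, and the points of DICER1 overlap.

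At the Microprocessor step, DGCR8, the double-stranded RNA-binding partner of DROSHA (chromosome 22, 20080221 to 20111877), had 55.5, 54.0 and 55.7 CPM in shCtrl and 73.3, 74.4 and 68.0 CPM in shNFKBIZ. All shNFKBIZ libraries stood above all shCtrl libraries, and the log2 fold change was 0.38 (edgeR adjusted P 1.83e-07, SE 0.0457). DGCR8 shares only 3 bases with TRMT2A on the other strand. TRMT2A had 413 to 494 exon reads in shCtrl and 549 to 576 in shNFKBIZ (log2 fold change 0.27), and the part of this overlap in the DGCR8 values was not tested. DROSHA, the nuclease itself (chromosome 5, 31400494 to 31532196), had 98.4, 101 and 101 CPM in shCtrl and 94.0, 92.9 and 91.0 CPM in shNFKBIZ. Its small fall of 0.11 on the log2 scale (edgeR adjusted P 0.0135, SE 0.0380) kept its sign but lost its call in 5 of 18 alternative settings, among them scaling by library size alone (-0.02, adjusted P 0.625) and leaving out shNFKBIZ replicate 3 (-0.10, adjusted P 0.0586). The 2 Microprocessor genes thus moved unequally. The ratio of DROSHA to DGCR8 TPM was 1.67, 1.76 and 1.70 in shCtrl and 1.21, 1.18 and 1.26 in shNFKBIZ, a ratio within each library that does not depend on scaling. Its means were 1.71 ± 0.0469 and 1.21 ± 0.0425 (SD, n = 3), and the exact permutation test gave P = 0.1, the smallest value that 3 against 3 libraries allow. In junction reads per junction the ratio was 1.46 ± 0.0199 in shCtrl and 1.04 ± 0.0623 in shNFKBIZ.

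XPO5, the export receptor for hairpin RNAs (chromosome 6, 43522334 to 43576038, minus strand), had 166, 171 and 162 CPM in shCtrl and 112, 113 and 112 CPM in shNFKBIZ. The groups were far apart relative to the spread of the libraries, and the log2 fold change was -0.56 (edgeR adjusted P 8.36e-12, SE 0.0362). It remained between -0.68 and -0.46 in all 18 alternatives. XPO5 shares 40086 bases with POLR1C, a polymerase subunit gene annotated on the other strand, which had 835 to 1004 exon reads in shCtrl and 1559 to 1595 in shNFKBIZ (log2 fold change 0.78). The counting ignored strand, so a read of the pair can go to either gene, and the part of this overlap in the XPO5 values was not tested.

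DICER1, which cuts the exported hairpin (chromosome 14, 95086228 to 95158010, minus strand), had 99.97, 100.4 and 110.0 CPM in shCtrl and 107, 107 and 111 CPM in shNFKBIZ. These values overlapped. The log2 fold change was 0.07 (95% interval -0.02 to 0.15, adjusted P 0.168, edgeR). The antisense gene DICER1-AS1, which overlaps it, had 3 to 7 exon reads. DICER1 was called higher with library size alone (0.16), with the trend on length and GC content removed (0.15) and without shCtrl replicate 3 (0.11, adjusted P 0.0234), so no firm statement on it is possible at this spread.

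The 4 Argonaute genes were called in different directions. AGO2 on chromosome 8, the slicer, had 165, 170.0 and 171 CPM in shCtrl and 228, 227 and 229 CPM in shNFKBIZ. In exon reads this was the largest rise among the members, with a log2 fold change of 0.44 (edgeR adjusted P 2.33e-10, SE 0.0340), but in reads that cross an exon-exon junction AGO2 was not called (0.07, adjusted P 0.369), and there DGCR8 (0.42) rose most. AGO1, a widely expressed Argonaute (chromosome 1, 35869808 to 35930532), had 63.3, 68.7 and 64.4 CPM in shCtrl and 71.4, 74.0 and 73.2 CPM in shNFKBIZ. Its groups were separate by a small gap, with a log2 fold change of 0.15 (edgeR adjusted P 0.00423, SE 0.0440). AGO4, next to AGO1 on the same strand (35808016 to 35857890), had 21.9, 23.4 and 22.7 CPM in shCtrl and 18.2, 19.9 and 17.7 CPM in shNFKBIZ. It was lower, by -0.28 on the log2 scale (edgeR adjusted P 0.000669, SE 0.0655). AGO3, on the other side of AGO1 (35930718 to 36072500), had 31.6, 33.6 and 31.5 CPM in shCtrl and 31.1, 29.8 and 30.0 CPM in shNFKBIZ. The groups differed by less than the test could call (log2 fold change -0.09, 95% interval -0.20 to 0.02, adjusted P 0.150), and the sign of AGO3 turned when intron reads were added to the exon reads (0.03). The 3 neighbours on chromosome 1 therefore included 1 gene that was higher, 1 that was lower and 1 that was not called.

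Since TPM is per length, the Argonaute genes could also be set against each other within each library. AGO2 made up 53.7%, 52.7% and 54.2% of the summed TPM of AGO1 to AGO4 in shCtrl and 61.5%, 60.5% and 61.6% in shNFKBIZ. The means were 53.5 ± 0.776% and 61.2 ± 0.619% (SD, n = 3), and the groups did not overlap (exact permutation test, P = 0.1, the smallest possible with 3 against 3). AGO4 went from 15.4 ± 0.118% to 10.7 ± 0.587%, AGO1 from 23.4 ± 0.537% to 22.1 ± 0.292% and AGO3 from 7.67 ± 0.172% to 6.09 ± 0.177% (SD, n = 3). With junction reads, divided by the number of junctions of the canonical transcript, AGO2 instead made up 51.5%, 49.7% and 52.5% in shCtrl and 51.8%, 50.9% and 51.8% in shNFKBIZ, which overlap (means 51.3 ± 1.43% and 51.5 ± 0.507%, SD, n = 3, exact permutation test, P = 0.8). The higher share of AGO2 was thus seen in TPM, which counts all exon reads, and not in junction reads. The summed level of all 4 was 74.3 ± 2.32 TPM in shCtrl and 93.0 ± 2.13 TPM in shNFKBIZ. This sum carries no TMM scaling. Within it AGO2, whose rise was not seen in junction reads, went from 39.8 to 56.9 TPM.

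**Figure D2:**
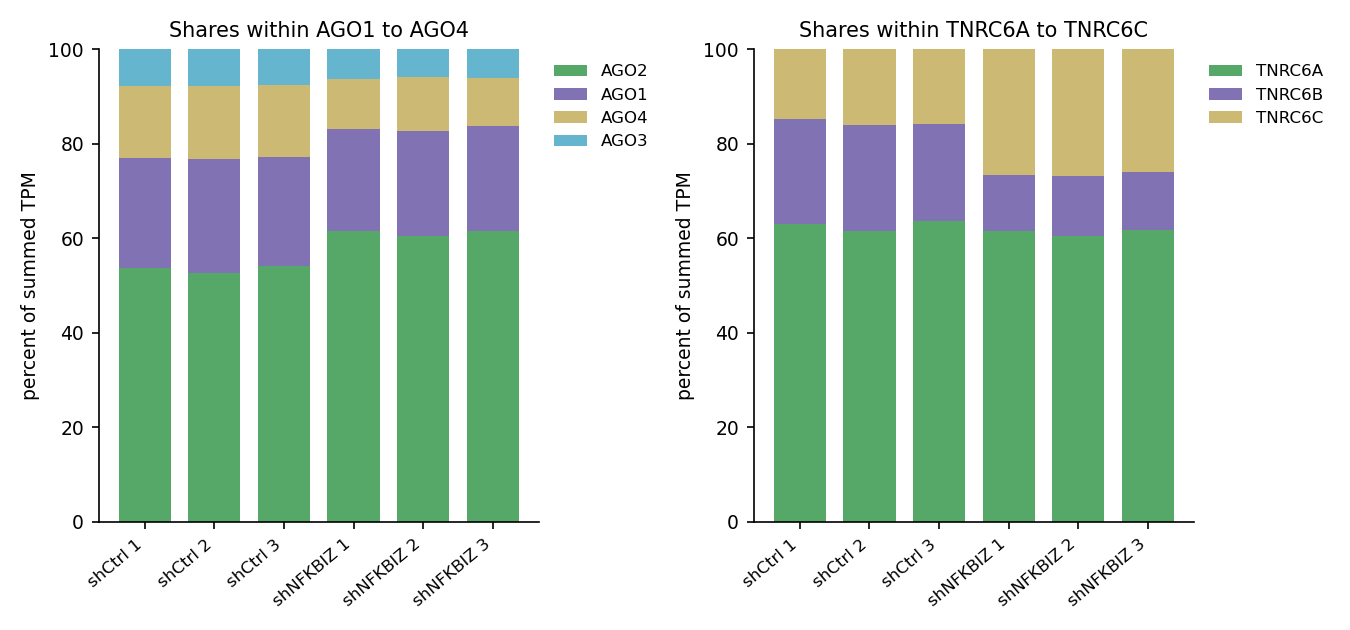
Share of each gene in the summed TPM of its family, in percent, in each of the 6 libraries, for AGO1 to AGO4 (left) and TNRC6A to TNRC6C (right). The share of AGO2 is 52.7% to 54.2% in shCtrl and 60.5% to 61.6% in shNFKBIZ, a difference that junction reads did not show, and the shares of TNRC6B and TNRC6C change order between the groups.

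The TNRC6 proteins are the scaffolds through which Argonaute reaches the silencing enzymes. TNRC6B (chromosome 22, 40044817 to 40335808) had 49.96, 52.6 and 47.7 CPM in shCtrl and 30.5, 32.5 and 31.7 CPM in shNFKBIZ. This was the largest change of any member, with a log2 fold change of -0.67 (edgeR adjusted P 2.87e-10, SE 0.0527), and the only one past 1.5-fold. TNRC6A (chromosome 16, 24610209 to 24827632) had 91.5, 92.9 and 96.0 CPM in shCtrl and 104, 100.5 and 104 CPM in shNFKBIZ, and it rose by 0.14 on the log2 scale (edgeR adjusted P 0.00369, SE 0.0388). TNRC6C, the remaining gene of the family and no member of the 10, had 19.1, 21.6 and 21.3 CPM in shCtrl and 40.3, 39.98 and 39.6 CPM in shNFKBIZ (log2 fold change 0.95, edgeR adjusted P 3.54e-12, SE 0.0579). The shares of the summed TNRC6 TPM moved accordingly. TNRC6B went from 21.8 ± 1.10% to 12.2 ± 0.476%, and TNRC6C from 15.4 ± 0.696% to 26.5 ± 0.404% (SD, n = 3). Junction reads per junction gave like shares, from 20.8 ± 2.10% to 10.7 ± 1.62% for TNRC6B and from 14.6 ± 2.27% to 25.6 ± 0.965% for TNRC6C (SD, n = 3). In TPM, TNRC6A stood at 62.8 ± 1.14% and 61.3 ± 0.693%, with overlapping libraries. The sum of the family was 42.9 ± 1.45 TPM in shCtrl and 51.2 ± 0.425 TPM in shNFKBIZ, again without TMM scaling.

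Intron reads, which come mostly from unspliced RNA, were compared in the same libraries to ask whether they moved with the exon reads. Of the 10 members, 4 were higher (AGO3, DROSHA, DGCR8, TNRC6A) and 4 lower (AGO1, AGO4, TNRC6B, XPO5) in intron reads, against 19.3% higher and 19.5% lower of the 12119 genes tested. The difference between the exon and the intron change was tested itself, as an interaction. It was called in 5 members, of which 2 had a higher exon than intron change (AGO1, AGO2) and 3 a lower one (XPO5, AGO3, DROSHA), against 13.1% and 15.7% of 11025 genes. DGCR8, TNRC6A, TNRC6B and AGO4 were called in the same direction in both kinds of read, and no difference between the 2 changes was called for them.

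**Figure D3:**
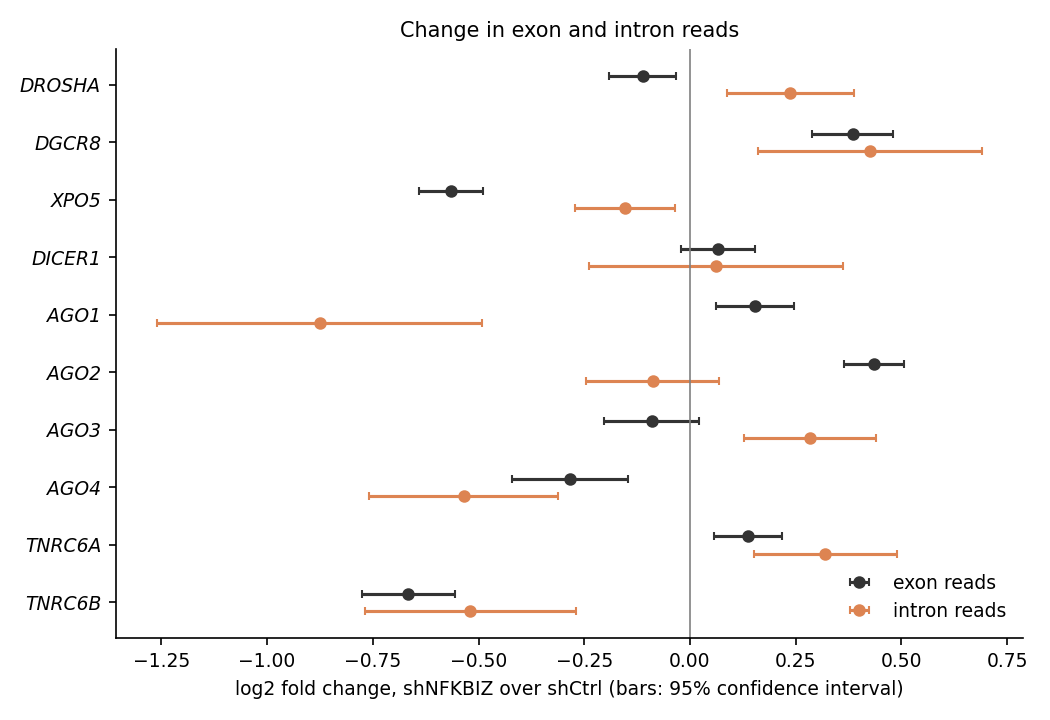
Log2 fold change of each member, shNFKBIZ over shCtrl, in exon reads (black) and intron reads (orange), with 95% confidence intervals. AGO1 lies at 0.15 in exon reads and at -0.88 in intron reads, and DROSHA lies below 0 in exon reads and above 0 in intron reads, while the exon interval of AGO3, whose sign turns with total gene reads, spans 0.

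AGO1 had few intron reads, 51, 52 and 49 in shCtrl and 29, 29 and 30 in shNFKBIZ. These fell by 0.88 on the log2 scale (edgeR adjusted P 0.000317, SE 0.190) while its exon reads rose, and the exon change exceeded the intron change by 1.05 (edgeR adjusted P 8.71e-06, SE 0.195). AGO2 had 331, 376 and 335 intron reads in shCtrl and 326, 399 and 319 in shNFKBIZ. They overlapped between the groups (log2 fold change -0.09, 95% interval -0.25 to 0.07), and the exon change was larger by 0.54 (edgeR adjusted P 4.03e-08, SE 0.0805).

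AGO3 and DROSHA showed the opposite. AGO3 had 261, 266 and 275 intron reads in shCtrl and 328, 367 and 345 in shNFKBIZ, a rise of 0.28 on the log2 scale (edgeR adjusted P 0.00348, SE 0.0774). DROSHA had 289, 304 and 303 against 360, 394 and 371 intron reads, a rise of 0.24 (edgeR adjusted P 0.0103, SE 0.0741). The exon change was below the intron change by -0.36 for AGO3 (edgeR adjusted P 0.00132, SE 0.0923) and by -0.34 for DROSHA (edgeR adjusted P 0.000423, SE 0.0789). XPO5 was the member richest in intron reads, with 969, 1081 and 881 in shCtrl and 910, 950 and 941 in shNFKBIZ. Its intron change of -0.15 (edgeR adjusted P 0.0349, SE 0.0586) lost its call in 8 of 15 alternatives, including each fit without shCtrl replicate 1, shCtrl replicate 2 or any 1 of the shNFKBIZ libraries (-0.16 to -0.11), and its exon change was lower than that by -0.40 (edgeR adjusted P 3.99e-07, SE 0.0648). The share of intron reads in XPO5 gene reads was 19.8% to 21.1% in shCtrl and 26.2% to 26.6% in shNFKBIZ. The overlapping POLR1C had 55 to 113 intron reads.

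For DGCR8 the intron reads were 77, 100 and 72 in shCtrl and 119, 133 and 104 in shNFKBIZ, a log2 fold change of 0.43 (edgeR adjusted P 0.00935, SE 0.131) beside 0.38 in exon reads. The rise of the intron reads was no longer called without shCtrl replicate 3 (0.34) or without shNFKBIZ replicate 2 (0.37). TNRC6B had 179, 158 and 122 intron reads in shCtrl and 101, 133 and 107 in shNFKBIZ (-0.52, edgeR adjusted P 0.00092, SE 0.123), TNRC6A 254, 221 and 240 against 315, 318 and 318 (0.32, edgeR adjusted P 0.00224, SE 0.0833) and AGO4 165, 161 and 141 against 118, 120 and 105 (-0.53, edgeR adjusted P 0.000172, SE 0.111). DICER1 had 58 to 66 and 67 to 74 intron reads, and its intron change was not called (0.06, 95% interval -0.24 to 0.36).

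Reads that cross an exon-exon junction come only from spliced RNA, and they gave another view of AGO2. AGO2 had 494, 518 and 472 junction reads in shCtrl and 493, 521 and 509 in shNFKBIZ. Their log2 fold change was 0.07 (edgeR adjusted P 0.369, SE 0.0618), against 0.48 (SE 0.0360) in the other exon reads of the same gene. The share of junction reads in AGO2 exon reads was 12.5% to 13.0% in shCtrl and 9.42% to 9.90% in shNFKBIZ. The rise of AGO2 was therefore in exon reads that cross no junction. Its canonical transcript is 14595 bases long, of which 11891 are 3′UTR and 2577 coding, and the files do not place reads within a gene.

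Between the 2 kinds of exon read, the change differed in 2 of the 10 members, both with a lower junction change. Of 10605 genes, 1.08% were called lower and 0.651% higher. The comparison was added after junction values were seen, so it is a description and no independent support. The junction change was below the change of the other exon reads by -0.43 for AGO2 (edgeR adjusted P 6.26e-08, SE 0.0591) and by -0.25 for XPO5 (edgeR adjusted P 0.000345, SE 0.0482). Both were called in all 10 alternatives. XPO5 had 1814, 1863 and 1665 junction reads in shCtrl and 1082, 1091 and 1097 in shNFKBIZ, a log2 fold change of -0.68, beside -0.45 in its other exon reads. For the other 8 members the difference lay between -0.07 and 0.12 and was not called. By junction reads alone, DGCR8 (0.42), AGO1 (0.25) and TNRC6A (0.24) were higher and TNRC6B (-0.72) and XPO5 lower. Of all 10622 genes tested in junction reads, 2871 were higher and 2963 lower, 54.9% together, so the share of members called was near the background. AGO2, AGO4 (-0.17, adjusted P 0.270) and DROSHA (-0.07, adjusted P 0.179) were not called in junction reads. For AGO4 and DROSHA no difference between the 2 kinds of exon read was called, whereas for AGO2 the change itself was smaller.

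**Figure D4:**
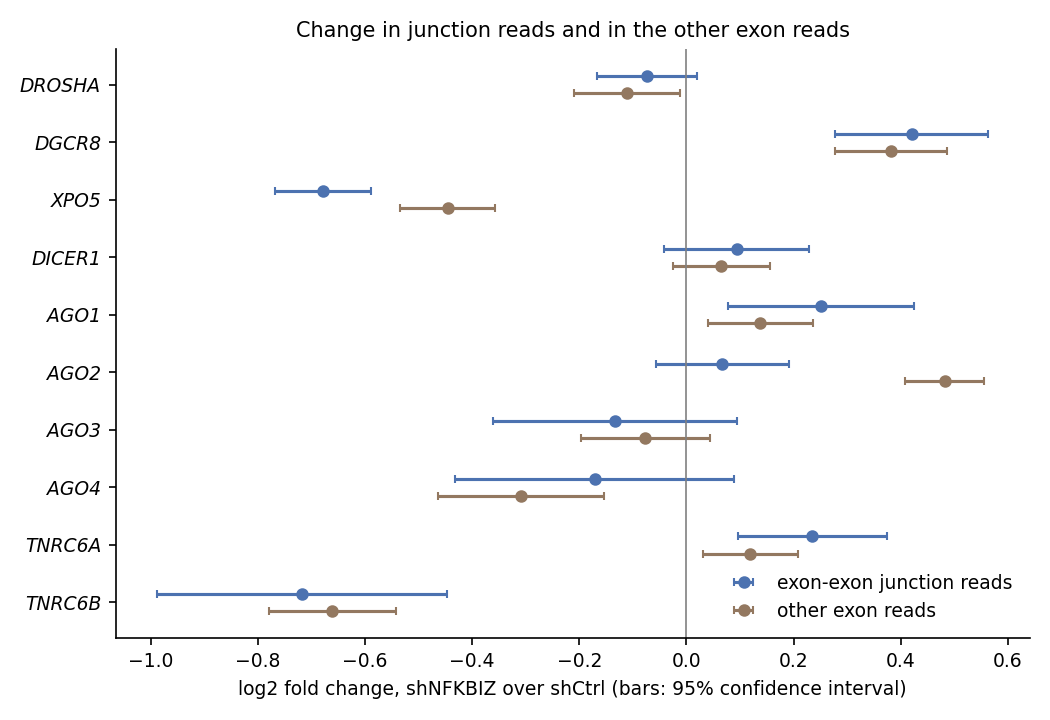
Log2 fold change of each member, shNFKBIZ over shCtrl, in exon-exon junction reads (blue) and in the other exon reads (brown), with 95% confidence intervals. The intervals of AGO2 are apart, at 0.07 for junction reads and 0.48 for the others, as are those of XPO5, at -0.68 and -0.45.

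Around the 10 members, 58 further genes of the small RNA pathway were taken from a hand-made list, of which 53 had enough exon reads for the test. Of these, 17 were higher, 22 lower and 14 not called, with a median log2 fold change of -0.04 against 0.00431 over all genes. Over all genes tested, 32.5% were higher and 32.8% lower. The groups of the list hold 2 to 18 genes each, so their counts are given as a description, and no test compared one group with another or with the rest of the genes.

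The list has 3 partners of DICER1, and all were higher, where 32.5% of all genes were. TARBP2, which helps DICER1 to load Argonaute, had 38.1, 43.9 and 40.2 CPM in shCtrl and 52.6, 47.7 and 49.0 CPM in shNFKBIZ (log2 fold change 0.29, edgeR adjusted P 0.000113, SE 0.0558). PRKRA, also known as PACT, rose by 0.25 (SE 0.0487), and ADAR, an editor of double-stranded RNA, by 0.12 (SE 0.0359), a change that was not called without shCtrl replicate 1 (0.08). Among the cofactors of the Microprocessor, 3 of 8 were higher and 2 lower. The RNA helicase DDX5 rose by 0.48 (SE 0.0400), while the 2 lower ones were SAFB2 (-0.55, SE 0.0479) and HNRNPA1 (-0.38, SE 0.0347).

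Of the 6 chaperones that load Argonaute, 4 were lower and 1 higher, where 32.8% of all genes were lower. The one that rose was HSPA8. FKBP4, an HSP90 co-chaperone, fell from 244 to 259 CPM in shCtrl to 163 to 170 CPM in shNFKBIZ (log2 fold change -0.61, SE 0.0360). Of the 2 export genes both were lower, with RAN, the GTPase that exportins need, at -0.41 (SE 0.0312) and XPO1 at -0.16 (SE 0.0349). Of the 18 silencing effectors, TNRC6C included, 6 were higher and 6 lower. Those higher included the decapping enzyme DCP2 (0.51, SE 0.0420) and the cap-binding repressor EIF4E2 (0.42, SE 0.0406). Those lower included CNOT1, the scaffold of the deadenylase complex, at 255 to 262 CPM in shCtrl and 144 to 153 CPM in shNFKBIZ (-0.81, SE 0.0352), and its deadenylase CNOT6 (-0.59, SE 0.0429).

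Of the 11 turnover genes, 10 were tested, and 2 were higher and 6 lower, where 32.5% of all genes were higher and 32.8% lower. ZC3H12A, an RNase that cuts precursor microRNAs and cytokine mRNAs, had 29.7, 26.6 and 30.9 CPM in shCtrl and 15.4, 17.3 and 14.3 CPM in shNFKBIZ (-0.89, SE 0.0746). Of the 6 regulators of Argonaute, 5 were tested, with 1 higher and 2 lower, and P4HA1, a prolyl hydroxylase subunit whose enzyme stabilises AGO2, had the largest fall on the list (-0.995, SE 0.0575), from 56.2 to 57.5 CPM to 25.6 to 30.8 CPM. Of the 4 PIWI genes only PIWIL4 was tested, and it passed the read filter only through the shNFKBIZ libraries, where it was high. Its exon reads numbered 4, 5 and 5 in shCtrl and 10, 13 and 22 in shNFKBIZ, a level of less than 1 CPM. It was the only list gene past 2-fold (log2 fold change 1.64, SE 0.415). That value is tied to the filter, so it is a description and no support for a change.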

How the data were processed

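RNA-seq libraries of shCtrl and shNFKBIZ LOX-IMVI cells (3 each, grouped by sample title) were analysed. The authors mapped reads to GRCh38 (hg38) with Ensembl annotation in CLC Genomics Workbench and deposited whole-number counts per gene of exon, intron and junction reads, with up to 10 hits per read and no use of strand. TPM was recomputed from exon counts and exon length, since the deposited values had a decimal comma, and differed by at most 4.98e-07. Of the identifiers, 99.97% were in GENCODE 44, and 99.6% had the same coordinates.

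Counts were filtered with filterByExpr, scaled by TMM and compared with the two-sided quasi-likelihood test of edgeR 4.0.16 (robust, R 4.3.3), Benjamini-Hochberg adjusted over all genes tested, with no replicate block. Exon against intron, and junction against other exon reads, were interactions with library blocks. The fits were run on simulated data with the same dispersion for every gene and few changed genes, unlike these data, as a check of the code alone. The members, lists and tests were chosen with earlier results of these data known, and the junction comparison after junction values were seen. Named genes were NFKBIZ, the members, TNRC6C, TARBP2, PRKRA, ADAR, overlapping genes with reads (those with at most 2 are left out here), and the 5 list genes changed most in each direction. HSPA8, RAN, XPO1, SAFB2 and HNRNPA1 were named after their values were seen. Same-numbered libraries did not deviate together (correlations 0.0207, 0.0561 and 0.0288). Alternatives were RLE factors, library size alone, other filters, the likelihood ratio test, DESeq2 1.42.0, unique reads, total gene reads, a replicate block, leaving out each library, removal of the 10 most abundant genes or of a length and GC trend, other thresholds and, added later, junction reads (also for the family shares) and canonical transcript lengths.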

Additional observations from a re-analysis of the deposited data

How the results depend on the processing

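Of the 8 members called in exon reads, 1 passed with a fold change of at least 1.5 and 0 with at least 2. Leaving out 1 library at a time gave 7 to 9. With junction reads, a setting chosen after seeing the data, 5 members were called, as were 54.9% of all genes tested. Of the 8 called in intron reads, 1 passed at 1.5-fold and 0 at 2-fold, and 6 to 7 were called with a library left out. Of the 39 list genes, 7 passed at 1.5-fold, 1 at 2-fold (PIWIL4, which passed the read filter only through shNFKBIZ), and 37 to 40 with a library left out. Stricter folds pass fewer genes by construction. The exon against intron comparison called 5 members, and the junction comparison 2, under all of their alternatives. With a library left out, NFKBIZ ranged from -1.83 to -1.72 and the rise of the AGO2 share from 7.24 to 8.02 percentage points. That rise was 6.40 points with gene reads not divided by length and 0.247 with junction reads per junction, where it was within the spread of the libraries.

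Signs turned only in values that were not called: AGO3 exon reads with total gene reads (0.0305), DICER1 exon minus intron without shCtrl replicate 1 or shNFKBIZ replicate 3 (from -0.0471 to 0.103 with any library left out), and DGCR8 exon minus intron without shCtrl replicate 1, shCtrl replicate 3 or shNFKBIZ replicate 2 (from -0.166 to 0.0621). DROSHA exon reads were also not called without shNFKBIZ replicate 3 (-0.10, adjusted P 0.0586, edgeR), and DGCR8 intron reads not with DESeq2 (adjusted P 0.0504). The cause was not tested. A replicate block gave 9303 genes called, with 4 members higher and 4 lower, and changed no call reported here. The labels do not say whether same-numbered libraries were prepared together.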
